A study of Mus musculus with 20 samples.

Results

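Ppargc1a encodes PGC-1alpha, a coactivator that fasting hormones raise in liver. Its values are given here with those of 9 genes that carry or read the hormonal signals of a fast: Ppargc1b, Foxo1, Nr3c1, Sik1, Irs1, Irs2, Insr, Gcgr and Fkbp5. The 10 genes were chosen by name, and all their probe sets with 1 gene symbol in the platform's probe table were used, 27 of the 45101 on the array. For the values that lead each comparison a gene stood by the brightest of its probe sets (mean over 20 arrays), here and for all 18193 genes with 1 symbol. The mice were male, 50 to 60 days old and of mixed BL6/SV129 background, and all had fasted for 12 h. There were 5 mice in each of 4 groups: mcad-/- mice (lacking medium-chain acyl-CoA dehydrogenase, the product of Acadm, an enzyme of mitochondrial fatty acid oxidation) given LPS, wild type mice given LPS, mcad-/- mice given vehicle and wild type mice given vehicle. LPS, lipopolysaccharide from the bacterial outer membrane, provokes inflammation and was injected at 100 µg per 20 g body weight. The knockout affects the whole animal, and nothing in the labels says that both genotypes came from shared litters, so that strain background and genotype cannot be told apart.

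In the fasted liver, glucagon acts through its receptor Gcgr to raise cAMP, which activates protein kinase A and the factors CREB and CRTC2, and Ppargc1a is one of their targets. Glucocorticoids act through the receptor encoded by Nr3c1, and their target Fkbp5 encodes a co-chaperone that lowers the receptor's affinity for hormone. Insulin, which is low in a fast, works the other way: its receptor Insr signals through the docking proteins Irs1 and Irs2 to the kinase AKT, which keeps the forkhead factor FOXO1 out of the nucleus. The kinase SIK1 holds CRTC2 in the cytoplasm and is itself induced by cAMP. PGC-1alpha coactivates HNF4A, FOXO1 and PPARalpha on genes of gluconeogenesis and fatty acid oxidation, and its relative PGC-1beta, encoded by Ppargc1b, acts on mitochondrial and lipid genes.

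The promoter windows of Ppargc1a and Gcgr are shown because these genes differed between genotypes and also with LPS. Each window runs from 250 bases before the RefSeq start to 50 bases after it, is printed 5′ to 3′ on the gene's strand, and comes from RefSeq's GRCm38.p6 annotation. For both genes the start used by that table lies inside the annotated gene, so each window belongs to 1 transcript start and not to the gene's outermost one. The Ppargc1a window lies on the minus strand at chr5:51567676-51567975 and the Gcgr window on the plus strand at chr11:120530477-120530776. Capitals mark a match to any of 5 motifs searched on both strands.
Ppargc1a: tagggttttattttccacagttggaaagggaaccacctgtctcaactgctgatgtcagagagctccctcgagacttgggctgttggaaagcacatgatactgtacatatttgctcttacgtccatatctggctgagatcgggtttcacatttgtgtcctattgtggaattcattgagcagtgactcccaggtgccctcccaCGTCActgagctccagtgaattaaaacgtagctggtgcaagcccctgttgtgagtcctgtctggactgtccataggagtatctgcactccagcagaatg
Gcgr: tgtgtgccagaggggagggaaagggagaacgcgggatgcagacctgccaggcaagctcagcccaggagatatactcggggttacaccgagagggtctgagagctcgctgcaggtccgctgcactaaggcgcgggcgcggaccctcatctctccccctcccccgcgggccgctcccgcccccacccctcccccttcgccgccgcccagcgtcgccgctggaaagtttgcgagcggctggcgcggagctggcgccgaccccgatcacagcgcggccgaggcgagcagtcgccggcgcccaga
The Ppargc1a window held a match to TGACG, the short form of the cAMP response element, on the opposite strand, beginning 49 bases before the start. That short form was found in 20.8% of all 32851 windows of this length, and the full cAMP response element TGACGTCA, which contains it, in 1.79%. The forkhead element GTAAACA was found in 3.65% of all windows, the insulin response element TGTTTTG in 6.28% and the glucocorticoid element in 0.472%. The table gave a usable window for 6 of the 10 genes, namely Ppargc1a, Foxo1, Irs1, Irs2, Gcgr and Fkbp5. Of these 6, 2 held the short form (Ppargc1a and Irs1), 2 the insulin response element (Irs1 and Irs2) and 0 any of the other 3 motifs, and the Gcgr window held none of the 5. Such matches are descriptions of letters, not of binding.

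The arrays behaved alike apart from a few mice. The share of probe sets above 16 intensity units ran from 30.3% to 32.4% over the arrays. The hepatocyte markers Alb, Ttr and Apoa1 averaged between 16498 and 21968 units in each group, while the lymphocyte and cholangiocyte lists had 0 tested genes. Not all hepatocyte markers were so even: Ass1 read at or under 16 units in every wild type LPS mouse. With LPS, 6 of the 8 tested genes of the hepatocyte list fell in mcad-/- and 5 fell in wild type, with 1 higher in each. Acadm followed the genotype labels, with 14.3 to 218 units in mcad-/- mice given LPS against 1450 to 2375 units in wild type mice given LPS, and 9.03 to 80.2 units in mcad-/- mice given vehicle against 3106 to 4022 units in wild type mice given vehicle (exact permutation p = 0.00794 for each genotype pair, two-sided, the smallest that 252 regroupings allow). Wild type LPS mouse 4 and wild type vehicle mouse 3 had the highest actin control ratios (the 3' over the 5' probe set, log2), 3.69 and 3.18, where the other 18 arrays ran from 1.35 to 2.34. Mcad-/- vehicle mouse 5 stood apart by its neutrophil markers, of which 3 of the 8 on the array were tested. The mean log2 level of these 3 was 8.13 in this mouse, against 4.01 to 4.51 in the other 4 mice of its group. Wild type vehicle mouse 1 was also high by that mean, at 7.31 against 4.89 to 5.92 in the other 4 mice of its group. Csf3r, Cxcr2, Elane, Mpo and Itgam of the same list read at or under 16 units in every vehicle mouse of both genotypes, these 2 mice included.

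Levels below are in GCRMA intensity units, a linear scale on which each probe set has its own brightness, so that levels are compared between groups and not between genes. Testing was limited to the 8774 genes that read above 16 units in 5 or more mice. Of the 10 genes 9 were tested, and Irs2 was not. Differences are on the log2 scale with their standard error (SE), and "called" means an adjusted p under 0.05 in limma after Benjamini-Hochberg adjustment over all 8774 genes. Each group of mice enters 2 of the 4 comparisons, so that these are not independent of each other. The plot of levels by mouse shows all 10 genes.

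**Figure D1:**
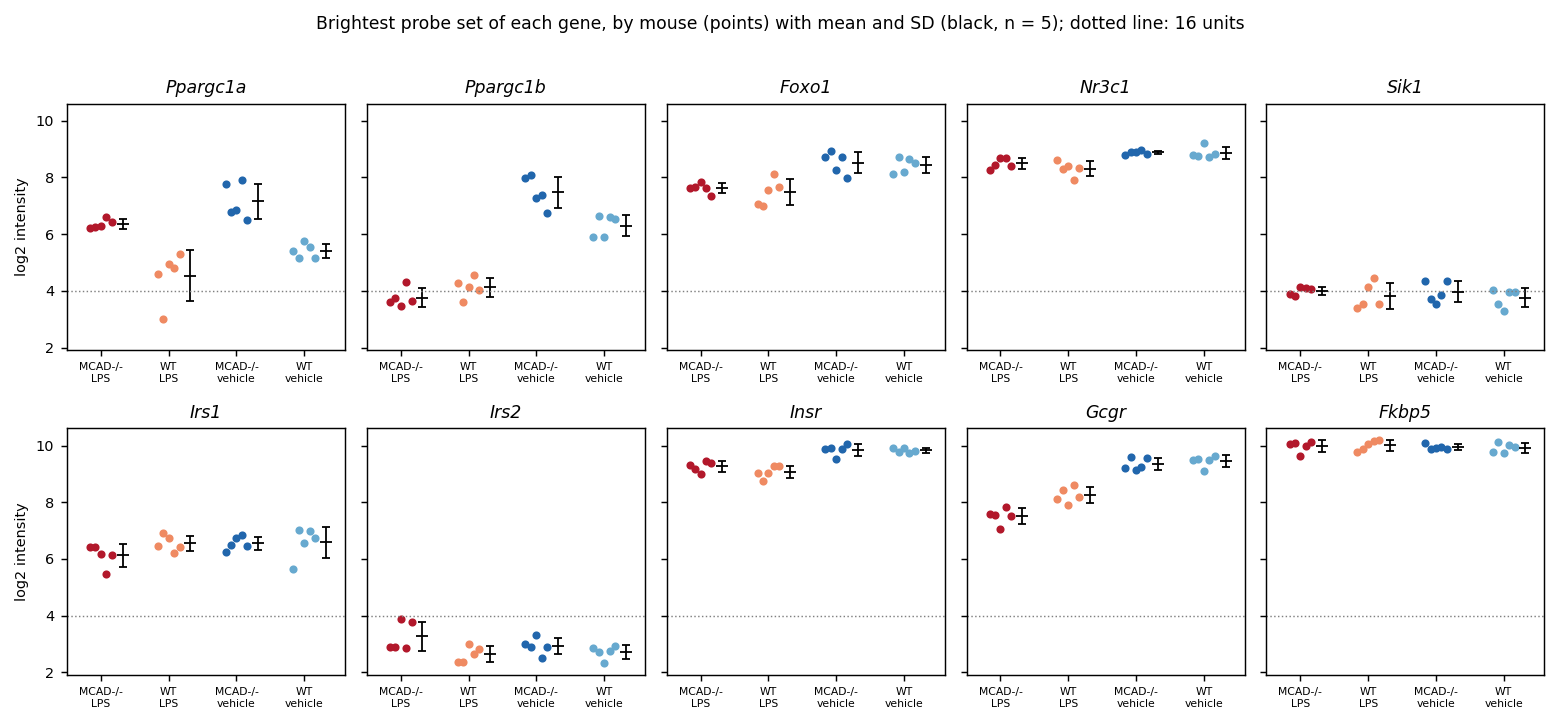
Log2 intensity (y axis) of the brightest probe set of each of the 10 genes in every mouse, by group (x axis, MCAD-/- for mcad-/-, WT for wild type); black marks give the mean and SD of 5 mice, and the dotted line is 16 units. Ppargc1a is higher in mcad-/- mice under both injections, Ppargc1b and Gcgr are low in all LPS mice, Fkbp5 lies at the same height in the 4 groups, and Irs2 lies under the line throughout.

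The first question was how the mcad-/- liver differed in these genes after a fast without LPS. Both PGC-1 coactivator genes were higher: Ppargc1a was 3.37-fold and Ppargc1b 2.27-fold higher in mcad-/- than in wild type mice given vehicle. The receptors for glucagon, insulin and glucocorticoid, the insulin docking protein gene Irs1, Foxo1, Sik1 and Fkbp5 were not called. Of the 9 tested genes 2 were called, both higher, where 16.2% of all tested genes were called, 9.81% higher and 6.39% lower.

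Ppargc1a read 216, 111, 116, 239 and 90.6 units in the 5 mcad-/- mice given vehicle, against 42.4, 35.7, 54.2, 47.1 and 35.8 units in the 5 wild type mice given vehicle. The lowest mcad-/- mouse lay above the highest wild type mouse, and the mcad-/- mice spread more widely, with an SD of 0.63 against 0.26 on the log2 scale. The difference was 1.75 ± 0.33 (SE; adjusted p = 0.000867), with a 95% interval of 1.07 to 2.44. Of its 5 probe sets 4, the brightest included, were called higher when each was fitted on its own. The dimmest is not counted, since it read under 16 units in all wild type mice and passed the filter through mcad-/- mice alone.

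Ppargc1b, measured by 1 probe set, read 251, 269, 154, 167 and 107 units in mcad-/- mice given vehicle, against 59.8, 98.9, 59.3, 96.7 and 91.8 units in wild type mice given vehicle. Again the groups did not overlap, and the difference was 1.18 ± 0.24 (SE; adjusted p = 0.00175). Mouse 5 of the mcad-/- vehicle group, the mouse with a high mean of the 3 tested neutrophil markers, had the lowest value of its group for Ppargc1a, Ppargc1b and Foxo1. Leaving this mouse and mcad-/- LPS mouse 3 out left both calls in place.

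Among the hormone receptors, Gcgr read 562 to 772 units in mcad-/- mice given vehicle and 553 to 802 units in wild type mice given vehicle, a log2 difference of -0.10 ± 0.15 (95% interval -0.43 to 0.22). Insr differed by 0.01 ± 0.12 (-0.23 to 0.26) and Nr3c1 by 0.01 ± 0.13 (-0.25 to 0.28). For these 3 receptors the intervals leave out a 1.5-fold difference in either direction. Irs1 differed by -0.03 ± 0.23 (-0.51 to 0.45), Foxo1 by 0.08 ± 0.20 (-0.34 to 0.51) and the glucocorticoid-induced Fkbp5 by 0.02 ± 0.11 (-0.21 to 0.26). The 2 groups overlapped for every one of these 6 genes, and their adjusted p ran from 0.71 to 0.96.

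Markers of other liver cells moved with the 2 coactivators in this comparison. Of the endothelial markers 10 of 11 tested were higher in mcad-/- and 0 lower, with a mean log2 level over the list of 6.52 to 7.07 per mouse against 5.02 to 5.99 in wild type. Of the Kupffer cell markers 6 of 9 were higher and 0 lower (6.99 to 7.49 against 6.17 to 6.89), and of the stellate cell markers 5 of 9 were higher and 0 lower (6.06 to 6.35 against 5.17 to 5.88). Of the hepatocyte markers 1 of 8 was higher and 0 lower, with list means of 12.5 to 12.74 against 12.46 to 12.52, and of the neutrophil markers 0 of 3 were higher and 1 lower. In bulk liver, a change in the number of cells of a type and a change in RNA per cell cannot be told apart. Under LPS the same endothelial list had 0 genes higher and 2 lower in mcad-/-, and the stellate list 0 higher and 2 lower. The Kupffer and neutrophil lists had 0 in either direction. The hepatocyte list had 1 of 8 genes higher and 0 lower, with list means of 12.25 to 12.47 against 12.08 to 12.28. Median log2 differences under LPS were -0.03 (endothelial), 0.34 (Kupffer), 0.11 (stellate), 0.11 (neutrophil) and -0.001 (hepatocyte), against -0.03 over all tested genes. The part of these cells in the coactivator differences was not tested.

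**Figure D2:**
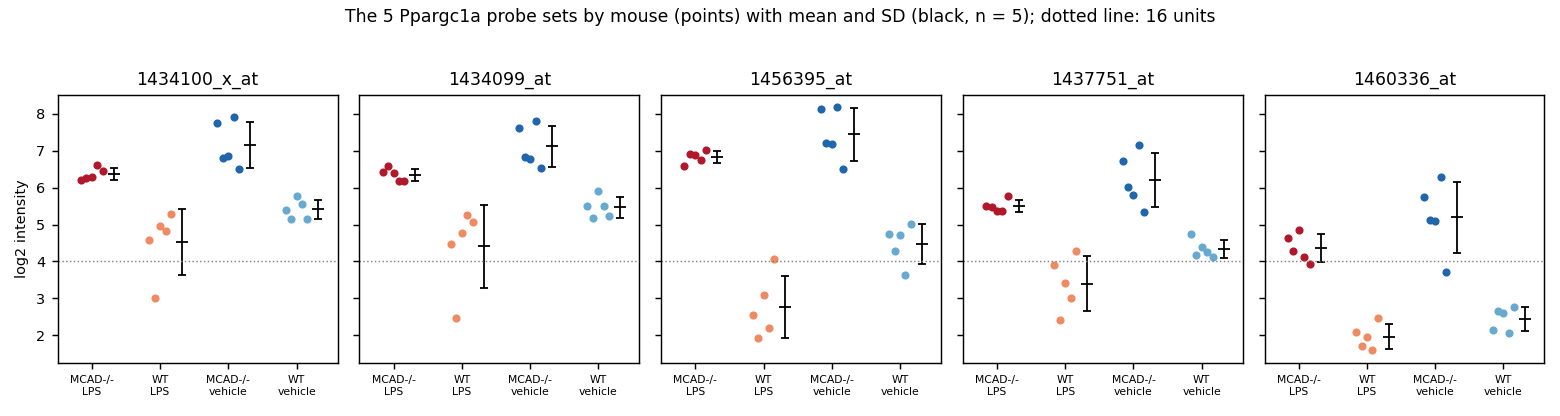
Log2 intensity (y axis) of each of the 5 Ppargc1a probe sets in every mouse, by group (x axis); black marks give the mean and SD of 5 mice, and the dotted line is 16 units. In every panel the mcad-/- means lie above the wild type means under both injections, and the 3 dimmest probe sets fall to or under the line in most wild type LPS mice.

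The next question was how the genotypes differed in these genes once LPS was added. Ppargc1a was 3.56-fold higher in mcad-/- than in wild type mice given LPS, whereas Gcgr was 1.66-fold lower. Ppargc1b was not called. Of the 9 tested genes 2 were called, 1 higher and 1 lower, where 20.6% of all tested genes were called, 8.75% higher and 11.8% lower.

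Ppargc1a read 73.7, 77.2, 78.1, 98.5 and 86.6 units in mcad-/- mice given LPS, against 24.0, 8.01, 31.2, 28.2 and 39.3 units in wild type mice given LPS. The 2 groups did not overlap, and the mcad-/- mice lay close together (SD 0.17 on the log2 scale) while wild type mouse 2 fell below 16 units (SD 0.89). The difference was 1.83 ± 0.33 (SE; adjusted p = 0.000493), the same 4 probe sets were called higher, and leaving out any 1 mouse gave differences between 1.45 and 2.02. The size of the difference depended on the probe set: fitted alone, the 5 differences ran from 1.83 to 4.06, the larger ones from probe sets whose wild type LPS values lay near or under 16 units.

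The glucagon receptor gene Gcgr read 193, 187, 134, 231 and 181 units in mcad-/- mice given LPS, against 274, 343, 239, 390.0 and 293 units in wild type mice given LPS. Every mcad-/- mouse lay below every wild type mouse, by 231 against 239 units at the nearest. The difference was -0.73 ± 0.15 (SE; adjusted p = 0.00194), and it remained called when each mouse was left out in turn, with a highest adjusted p of 0.00725.

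Ppargc1b read 12.3, 13.4, 11.1, 19.9 and 12.5 units in mcad-/- mice given LPS, against 19.5, 12.3, 17.4, 23.4 and 16.4 units in wild type mice given LPS. The groups overlapped and lay around the 16-unit floor, where GCRMA compresses differences, so the difference of -0.36 ± 0.24 (SE; adjusted p = 0.312) says little about its true size. Irs1 differed by -0.42 ± 0.23 (adjusted p = 0.214), Insr by 0.19 ± 0.12 (0.281), Nr3c1 by 0.19 ± 0.13 (0.308), Foxo1 by 0.14 ± 0.20 (0.679) and Fkbp5 by -0.03 ± 0.11 (0.891). Mcad-/- and wild type mice overlapped for each of these 5 genes.

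**Figure D3:**
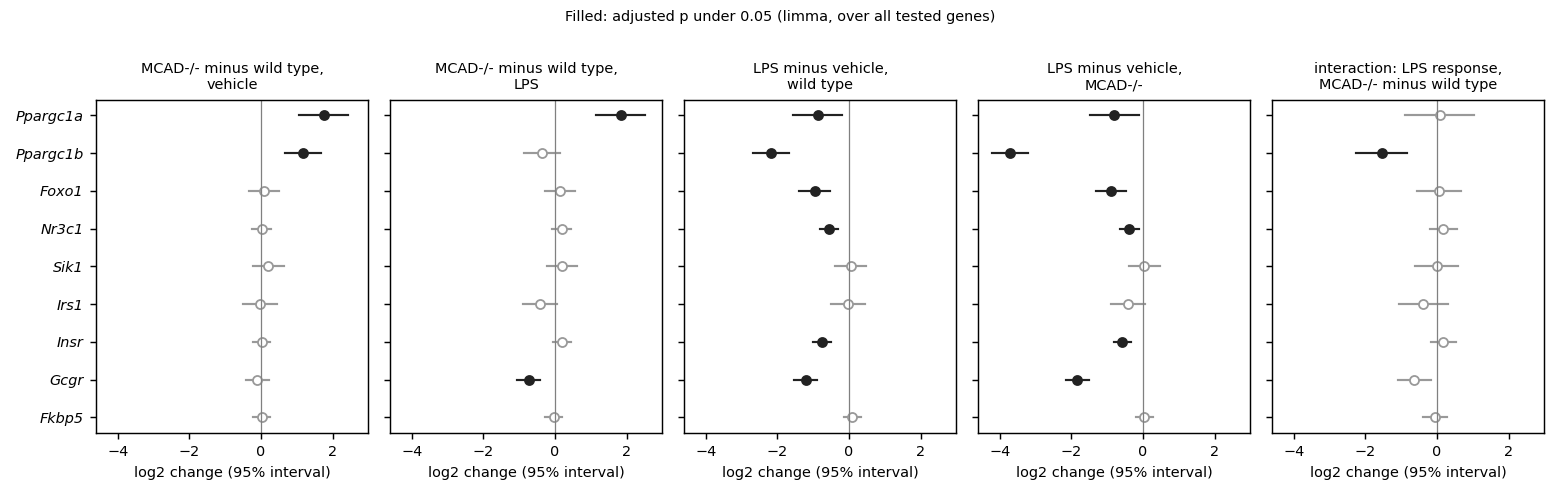
Log2 change (x axis, with its 95% interval from limma) of the 9 tested genes (y axis) in the 4 comparisons and the interaction; filled points are called after adjustment over all tested genes. The genotype differences are few, the LPS panels show 6 filled points each, all below 0, and Ppargc1b is the filled point of the interaction.

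LPS lowered most of the hormone signalling genes. In wild type mice, Ppargc1b, Gcgr, Foxo1, Ppargc1a, Insr and Nr3c1 fell, by between 2.18 and 0.56 on the log2 scale, and Fkbp5, Irs1 and Sik1 were not called. In mcad-/- mice the same 6 genes fell, by between 3.73 and 0.38. All 6 calls in each genotype were in the lower direction: in wild type mice 64% of all tested genes were called, 40% higher and 24% lower, and in mcad-/- mice 65.7% were called, 38.1% higher and 27.6% lower. The median tested gene was 0.18 higher with LPS in wild type and 0.14 higher in mcad-/- on the log2 scale. With each array centred on the median of its tested genes, which draws such medians towards 0, they were 0.02 and 0.04. With each array centred on the median of all its probe sets, they were 0.22 and 0.17. Under both scalings 6 of the 9 genes were again called in each genotype.

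The glucagon receptor fell in both genotypes with no overlap between injections. With the LPS values above, the vehicle mice read 589, 772, 562, 610.3 and 764 units in mcad-/- and 721, 739, 553, 725 and 802 units in wild type. Gcgr was thus 3.58-fold lower with LPS in mcad-/- (-1.84 ± 0.15, SE; adjusted p = 3.81e-09) and 2.32-fold lower in wild type (-1.21 ± 0.15; adjusted p = 1.17e-06). The interaction (the mcad-/- change with LPS less the wild type change) was -0.63 ± 0.22 and was not called (adjusted p = 0.103, unadjusted p = 0.00903).

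The insulin receptor gene Insr read 638, 574, 511, 706 and 671 units with LPS in mcad-/- mice, against 935, 965, 729, 934 and 1055 units with vehicle. In wild type mice it read 521, 435, 522, 624 and 619 units with LPS, against 953, 873, 970.2, 862 and 885 units with vehicle. LPS and vehicle mice did not overlap in either genotype, and the falls were -0.57 ± 0.12 in mcad-/- (adjusted p = 0.000305) and -0.75 ± 0.12 in wild type (adjusted p = 1.85e-05). The other 2 Insr probe sets were under 16 units in every mouse. Averaged with these dim probe sets, the fall was -0.22 in mcad-/- (adjusted p = 0.0175) and -0.15 in wild type, where it was not called (adjusted p = 0.102).

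The glucocorticoid receptor gene Nr3c1 read 307, 351, 408, 415 and 339.6 units with LPS in mcad-/- mice, against 449, 473, 478, 505 and 456 units with vehicle. In wild type mice the values were 393, 315, 335, 240.0 and 321 units with LPS, against 444, 437, 598, 425 and 451 units with vehicle. The falls were the smallest of the 6 called, -0.38 ± 0.13 in mcad-/- (adjusted p = 0.0113) and -0.56 ± 0.13 in wild type (adjusted p = 0.000641), and the injections did not overlap in either genotype. Of its 6 probe sets 4 passed the filter, and of these 2 were called lower in mcad-/- and 3 in wild type.

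Fkbp5, whose product restrains the glucocorticoid receptor, was not called with LPS. It read 802 to 1129 units with LPS against 942 to 1096 units with vehicle in mcad-/- mice, and 864 to 1184 units with LPS against 850.1 to 1126 units with vehicle in wild type mice. The differences were 0.04 ± 0.11 (95% interval -0.20 to 0.27) in mcad-/- and 0.09 ± 0.11 (-0.15 to 0.33) in wild type. These intervals leave out a 1.5-fold change, and its groups overlapped in all 4 comparisons. A dimmer Fkbp5 probe set that also passed the filter was called in 0 of the 5 comparisons. Fitted alone, it had an SE of 0.43 in each comparison of 2 groups, so its lack of calls says little about a 1.5-fold change.

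The docking protein gene Irs1 read 86.4, 86.7, 72.6, 44.1 and 70.2 units with LPS in mcad-/- mice, against 76.3, 89.8, 106, 114 and 87.0 units with vehicle. In wild type mice it read 87.2, 121, 106, 74.6 and 84.8 units with LPS, against 49.8, 128, 94.0, 126 and 107 units with vehicle. The injections overlapped in both genotypes, with differences of -0.42 ± 0.23 in mcad-/- (adjusted p = 0.113) and -0.04 ± 0.23 in wild type (adjusted p = 0.896). Irs2, the other docking protein, read under 16 units on its 1 probe set in all 20 mice, with a highest value of 14.7 units in mcad-/- LPS mouse 3, and no fold is given for it. Sik1 lay around the floor, at 9.8 to 22.0 units over the 20 mice and above 16 units in 8 of them, and its differences ran from 0.04 to 0.21 on the log2 scale with adjusted p from 0.545 to 0.874. A level so near the floor cannot show a moderate difference in Sik1 or Irs2.

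Foxo1, the forkhead factor that insulin restrains, fell in both genotypes. It read 200.3, 204, 231, 199 and 161 units with LPS in mcad-/- mice, against 418, 484, 308, 426 and 255 units with vehicle, and 134, 127, 189.8, 281 and 203 units with LPS in wild type mice, against 279, 419, 293, 403 and 369 units with vehicle. The falls were -0.90 ± 0.20 in mcad-/- (adjusted p = 0.000754) and -0.96 ± 0.20 in wild type (adjusted p = 0.000431). Only wild type LPS mouse 4, the array with the highest actin ratio, reached into the range of its vehicle group. All 3 Foxo1 probe sets that passed the filter were called lower in both genotypes, and the interaction was 0.06 ± 0.29 (95% interval -0.55 to 0.66).

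Ppargc1a fell with LPS in both genotypes, with adjusted p near the threshold. It fell by 0.80 in mcad-/- (SE 0.33; adjusted p = 0.0388) and by 0.87 in wild type (SE 0.33; adjusted p = 0.0252), and the injections overlapped in both genotypes. Of its 5 probe sets 2 were called lower in mcad-/-, the brightest and the dimmest, and the genotype counts above left the dimmest out. The others changed by -0.77, -0.61 and -0.71 in mcad-/- (adjusted p = 0.0847, 0.148 and 0.0582, each probe set fitted alone). In wild type 4 were called lower, all but the dimmest. In mcad-/- the call was lost in 6 of 20 fits that left out 1 mouse: without vehicle mice 1 or 4, the 2 highest, the fall was -0.65 and -0.61 (adjusted p = 0.106 and 0.117), and without LPS mice 1, 2, 3 or 5 it was -0.76, -0.77, -0.78 and -0.82, about as large as with all mice, while the adjusted p was 0.0709, 0.066, 0.0646 and 0.054. In wild type it was lost in 2 of 20, with a fall of -0.49 without LPS mouse 2 (adjusted p = 0.0826) and of -0.79 without vehicle mouse 3 (adjusted p = 0.0594). The interaction was 0.08 ± 0.46 (adjusted p = 0.947), with an interval of -0.89 to 1.05 that leaves room for a 2-fold difference in response.

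Ppargc1b had the largest falls of the 6 genes. Set against the vehicle values above, it was 13.2-fold lower with LPS in mcad-/- (-3.73 ± 0.24; adjusted p = 9.27e-11) and 4.54-fold lower in wild type (-2.18 ± 0.24; adjusted p = 1.79e-07), with no overlap in either. Since 4 of the 5 mcad-/- LPS mice and 1 of the 5 wild type LPS mice read under 16 units, both folds depend on the floor. The interaction was -1.54 ± 0.34 (adjusted p = 0.0128), where 4.11% of all tested genes were called, 1.36% higher and 2.76% lower. It was the 1 of the 9 tested genes called there. With LPS both genotypes lay near the floor, so the interaction cannot be told apart from the higher vehicle level in mcad-/- (1.18), and its size is not a measured difference in response. The other cell types' markers moved alongside: the interaction of the endothelial list had 0 genes higher and 5 of 11 lower, that of the stellate list 0 higher and 2 of 9 lower and those of the Kupffer, neutrophil and hepatocyte lists 0 in either direction. Their part in the Ppargc1b result was not tested.

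Ordered by group, Ppargc1a was highest in mcad-/- with vehicle, then in mcad-/- with LPS, then in wild type mice given vehicle and lowest in those given LPS, with means of 143, 82.4, 42.5 and 23.2 units. The first and the second, and the third and the fourth, overlapped, and the second and the third did not. For Ppargc1b the order was mcad-/- with vehicle, wild type given vehicle, the same genotype given LPS and mcad-/- with LPS, with means of 179.6, 79.2, 17.4 and 13.6 units, and the last pair overlapped. For Gcgr it was wild type with vehicle (703 units), mcad-/- with vehicle (654), wild type with LPS (303) and mcad-/- with LPS (182), and the first pair overlapped.

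The 5 genes whose values over the 20 mice lay closest to those of Ppargc1a were Lancl2, Slc25a51, Got1, 2510039O18Rik and Ptprf. Likeness was the root mean square difference of log2 values, each gene centred on its own mean, and was 0.55, 0.56, 0.56, 0.57 and 0.61 for these genes, where Ppargc1a's own values had a root mean square of 1.11. The choice used the same 20 mice as the calls below. It therefore favours calls in the directions of Ppargc1a, and those calls are a description and no separate evidence. Lancl2 had medians of 52.9 units in mcad-/- with LPS, 22.6 in wild type with LPS, 79.4 in mcad-/- with vehicle and 34.3 in wild type with vehicle. Like Ppargc1a it was higher in mcad-/- under LPS (2.3-fold, adjusted p = 2.62e-07) and under vehicle (2.36-fold, adjusted p = 1.48e-07) and lower with LPS in mcad-/- (-0.68, adjusted p = 4.04e-05) and in wild type (-0.64, adjusted p = 7.65e-05). Slc25a51, which encodes a mitochondrial NAD carrier, Got1, the cytosolic aspartate aminotransferase, 2510039O18Rik and the receptor phosphatase gene Ptprf were also called higher in mcad-/- under both injections. Of these 4, Slc25a51, Got1 and Ptprf were called lower with LPS in wild type and 0 of the 4 in mcad-/-.

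Other genes of these pathways are given by list, with the count called beside the median log2 change of the tested members. The lists share genes, among them Sgk1, Klf15, Pck1, G6pc and Lpin1, so that their counts are not independent of each other. Between the genotypes the glucagon and cAMP list had 4 of 25 genes higher and 0 lower under vehicle (median 0.22) and 5 higher and 0 lower under LPS (0.08). Over all tested genes 9.81% were called higher and 6.39% lower under vehicle, with a median of 0.04, and 8.75% higher and 11.8% lower under LPS, with a median of -0.03. The counts of this and the other lists are to be read against those shares, and no list was tested as a whole. Where a list gene has a level under 16 units, the size of its difference depends on the floor. Crtc2 in wild type mice given vehicle is such a case. Under vehicle the salt-inducible kinase genes Sik3 (456 against 239 units; 0.93 ± 0.17, adjusted p = 0.000853; not called with its probe sets averaged, adjusted p = 0.633) and Sik2 (73.9 against 52.1 units; 0.51 ± 0.16, adjusted p = 0.0329) and the CREB coactivator gene Crtc2 (26.9 against 14.9 units; 0.85 ± 0.19, adjusted p = 0.0031) were higher in mcad-/-. Under LPS the cAMP phosphodiesterase genes Pde4b (40.3 against 19.9 units; 1.02 ± 0.25, adjusted p = 0.00569) and Pde3b (453 against 323 units; adjusted p = 0.0204) and the CREB family gene Crem (419 against 230.4 units; adjusted p = 0.0305) were higher in mcad-/-.

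The glucocorticoid target list had 5 of 21 genes higher and 1 lower in mcad-/- under vehicle (median 0.29) and 6 higher and 0 lower under LPS (0.26). The kinase gene Sgk1 was higher in mcad-/- under LPS (1033 against 623 units; 0.73 ± 0.16, adjusted p = 0.00235) and under vehicle (307 against 154 units; 1.00 ± 0.16, adjusted p = 0.000147). The clock gene Per1 was higher under LPS (83.4 against 36.7 units; 1.18 ± 0.18, adjusted p = 9.14e-05) and under vehicle (49.3 against 25.6 units; 0.95 ± 0.18, adjusted p = 0.00101). The phosphatase gene Dusp1 was higher under LPS (426 against 216 units; adjusted p = 0.000336), and Gadd45b was lower under vehicle (15.2 against 23.8 units; adjusted p = 0.00718). These genes were named for their small adjusted p, and 15 of the 21 genes of the list were not called under LPS. Fkbp5, another target of the same receptor, differed by -0.03 ± 0.11 between genotypes under LPS.

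The PGC-1 partner list had 2 of 20 genes higher and 0 lower in mcad-/- under vehicle (median 0.03) and 3 higher and 0 lower under LPS (-0.03). The Mediator subunit gene Med1 was higher in mcad-/- under LPS (185 against 107 units; 0.78 ± 0.12, adjusted p = 0.000102) and under vehicle (194 against 119 units; 0.70 ± 0.12, adjusted p = 0.000365). The receptor gene Ppara was higher under vehicle (1848 against 1238 units; adjusted p = 0.0313), though the mean of its probe sets gave -0.42, and Tfb2m, a mitochondrial transcription factor (adjusted p = 0.0105), and Prkaa2, an AMP kinase subunit (adjusted p = 0.044, called in 12 of 35 other fits), were higher under LPS. Of the PGC-1 target genes 1 of 18 was higher and 0 lower under vehicle (median 0.09), which was the gluconeogenic Fbp1 (9884 against 7934 units; adjusted p = 0.0123). Under LPS 2 were higher and 2 lower (-0.05), among them Pck1, a gluconeogenic enzyme (6906 against 5265 units; adjusted p = 0.0404, called in 22 of 35 other fits), on the higher side and Cpt1a (1118 against 1578 units; adjusted p = 0.0391, also in 22 of 35) and Fgf21 (4.59 against 16.9 units; adjusted p = 0.000655) on the lower side.

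Of the insulin signalling genes 2 of 29 were higher and 2 lower in mcad-/- under vehicle (median 0.03) and 0 higher and 3 lower under LPS (-0.03). Mtor, the growth kinase (169.5 against 312 units; -0.88 ± 0.15, adjusted p = 0.000265), its partner Rptor (40.4 against 65.2 units; adjusted p = 0.00444) and the insulin receptor inhibitor Grb14 (184 against 292 units; adjusted p = 0.00403) were lower in mcad-/- under LPS. Under vehicle Mtor and Rptor were lower too (-0.48 and -0.54; adjusted p = 0.0319 and 0.0263). Of the forkhead factors and regulators 2 of 14 were higher and 1 lower under vehicle (median 0.19), and 2 higher and 3 lower under LPS (0.01). The deacetylase gene Sirt1, whose product acts on PGC-1alpha and FOXO1, was higher in mcad-/- under LPS (121 against 57.0 units; 1.09 ± 0.16, adjusted p = 8.24e-05) and under vehicle (111 against 67.8 units; 0.71 ± 0.16, adjusted p = 0.00502), while Sgk2 was lower under LPS (9.99 against 67.3 units; adjusted p = 1.48e-05). Of the Foxo1 target genes 2 of 20 were higher and 0 lower under vehicle (median 0.28) and 4 higher and 0 lower under LPS (-0.09), with Klf15 higher under LPS (789.8 against 486 units; adjusted p = 0.00504). Of the receptor complex and steroid handling genes 1 of 15 was higher and 0 lower under vehicle (median -0.06) and 3 higher and 2 lower under LPS (-0.23), with the coactivator gene Ncoa2 higher under LPS (1036 against 673 units; adjusted p = 0.000994).

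**Figure D4:**
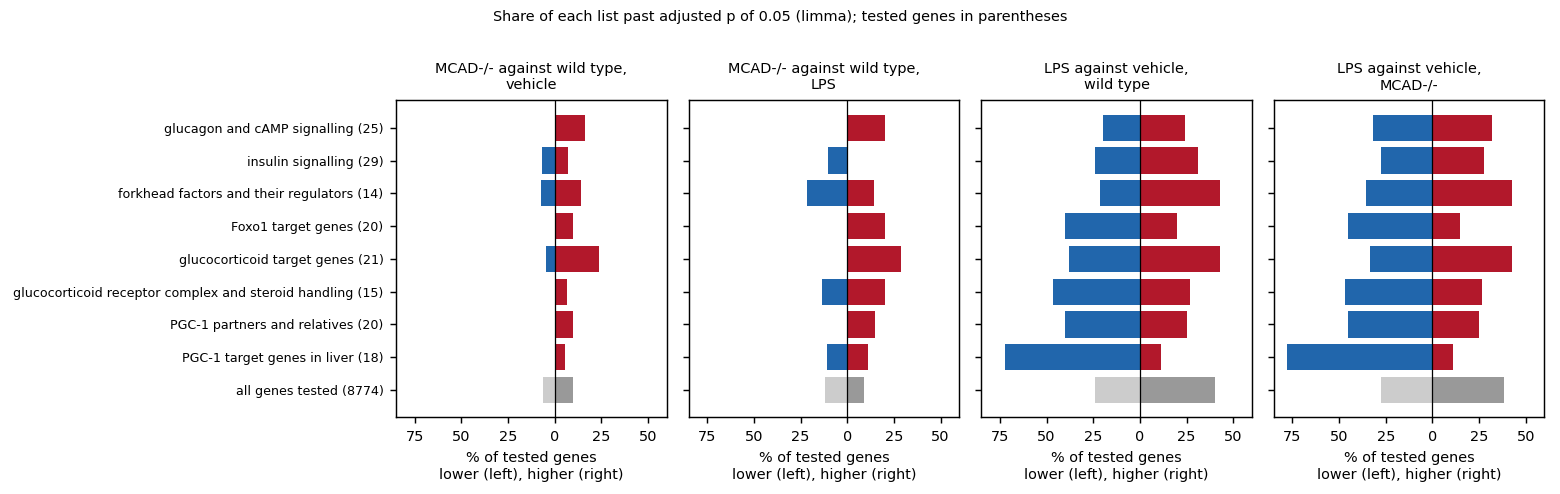
Share of the tested genes of each pathway list (y axis, number tested in parentheses) that were called lower (left, blue) or higher (right, red) in each of 4 comparisons (x axis, percent), with all 8774 tested genes in grey. Between genotypes the bars are short, and with LPS the PGC-1 target list has the longest bar on the lower side.

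With LPS, the called genes of each list lay in both directions. Over all tested genes 38.1% were called higher and 27.6% lower in mcad-/-, and 40% higher and 24% lower in wild type. Of the PGC-1 target genes 14 of 18 fell and 2 rose in mcad-/- (median -0.55) and 13 fell and 2 rose in wild type (-0.49). Cyp7a1, which sets the rate of bile acid synthesis, read 6.27 units with LPS against 2073 units with vehicle in mcad-/-, and 9.69 against 1762 units in wild type. Cyp8b1, another bile acid enzyme, read 193 against 2499 units in mcad-/- and 294 against 2292 units in wild type, while Sod2, the mitochondrial superoxide dismutase, rose (6976 against 2708 units in mcad-/- and 6429 against 2618 units in wild type). Of the PGC-1 partners 9 of 20 fell and 5 rose in mcad-/- (median -0.19) and 8 fell and 5 rose in wild type (-0.10), with Ppara lower in mcad-/- (-1.36, adjusted p = 1.57e-06) and in wild type (-0.73, adjusted p = 0.00134), and Tfb2m lower in mcad-/- (-0.90, adjusted p = 5.19e-05) and in wild type (-1.64, adjusted p = 3.17e-08). Of the Foxo1 targets 9 of 20 fell and 3 rose in mcad-/- (-0.26), and 8 fell and 4 rose in wild type (-0.29). Gabarapl1 fell by 1.32 in mcad-/- and by 0.80 in wild type, and G6pc, the last enzyme of glucose release, by 4.57 and by 2.71, on the log2 scale.

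In the insulin list 8 of 29 genes rose and 8 fell with LPS in mcad-/- (median 0.10) and 9 rose and 7 fell in wild type (0.18), where 65.7% and 64% of all tested genes were called in either direction. The cytokine signalling inhibitor Socs3, which also blocks insulin receptor signalling, rose to 1478 units with LPS against 154 units with vehicle in mcad-/- (3.26 ± 0.31, adjusted p = 2.62e-08) and to 1217 against 217 units in wild type (2.49 ± 0.31, adjusted p = 1.04e-06). Ptpn1, a phosphatase that acts on the insulin receptor, rose in mcad-/- (1.56, adjusted p = 2.82e-06) and in wild type (1.42, adjusted p = 9.29e-06). In the glucagon and cAMP list 8 of 25 genes rose and 8 fell in mcad-/- (-0.07) and 6 rose and 5 fell in wild type (-0.01), with Crem higher (2.10 in mcad-/- and 1.78 in wild type), the adenylate cyclase gene Adcy9 lower (-1.72 and -1.48) and Pde3b lower (453 against 927 units in mcad-/- and 323 against 712 units in wild type).

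In the glucocorticoid target list 9 of 21 genes rose and 7 fell with LPS in mcad-/- (median 0.28) and 9 rose and 8 fell in wild type (0.02). Sgk1 rose to 1033 units with LPS against 307 units with vehicle in mcad-/- (1.75 ± 0.16, adjusted p = 9.4e-09) and to 623 against 154 units in wild type (2.02 ± 0.16, adjusted p = 1.54e-09). Cdkn1a, the cell cycle inhibitor p21, rose to 595 against 24.4 units in mcad-/- and to 666 against 25.3 units in wild type, and Lpin1, a PGC-1alpha partner, fell by 2.64 in mcad-/- and by 1.53 in wild type on the log2 scale. In the receptor complex list 4 of 15 genes rose and 7 fell in mcad-/- (-0.31) and 4 rose and 7 fell in wild type (-0.29). The chaperone gene Hsp90aa1 rose (4345 against 1576 units in mcad-/- and 4582 against 2005 units in wild type), and Hsd11b1, which regenerates active glucocorticoid, fell (2377 against 4583 units in mcad-/- and 2897 against 5081 units in wild type). In the forkhead list 6 of 14 genes rose and 5 fell in mcad-/- (0.10) and 6 rose and 3 fell in wild type (0.07), with Foxo3 lower in mcad-/- (-1.23, adjusted p = 1.36e-07) and in wild type (-0.60, adjusted p = 0.000615), and Foxo4 lower in mcad-/- (-1.49, adjusted p = 7.49e-07) and in wild type (-1.12, adjusted p = 2.68e-05). Markers of other cells changed in the same mice. Of the neutrophil markers 3 of 3 tested rose in each genotype. Csf3r, Cxcr2, Elane and Mpo of the same list read at or under 16 units in all mice of the 4 groups. Of the Kupffer cell markers 8 of 9 fell and 1 rose in mcad-/- and 6 fell and 1 rose in wild type. Of the endothelial markers 7 of 11 fell and 2 rose in mcad-/- and 1 fell and 5 rose in wild type, and of the stellate markers 5 of 9 fell and 0 rose in mcad-/- and 2 fell and 2 rose in wild type. Of the hepatocyte markers 6 of 8 fell and 1 rose in mcad-/- and 5 fell and 1 rose in wild type. The part of these cells in the LPS results was not tested.

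The interaction of the list genes was called at a share near that over all tested genes, 4.11%. It was called for 2 of 25 glucagon and cAMP genes, both lower (Sik3 by -1.03 ± 0.25, adjusted p = 0.0208, and the cyclase gene Adcy6 by -1.13 ± 0.32, adjusted p = 0.0467, called in 9 of 33 other fits). It was also called for 1 of 14 forkhead regulators (Sgk2, -2.97 ± 0.51, adjusted p = 0.00214), 1 of 21 glucocorticoid targets (Gadd45b, 0.88 ± 0.22, adjusted p = 0.0294) and 1 of 18 PGC-1 targets (Fgf21, -1.92 ± 0.49, adjusted p = 0.0309). Sgk2, Gadd45b and Fgf21 each had at least 1 group averaging under 16 units. Adcy6 read at or under 16 units in every mcad-/- LPS mouse. The sizes of these interactions therefore depend on the floor. The probe sets of Sik3 disagreed, and their mean gave an interaction of 0.03. For the insulin, Foxo1 target, receptor complex and PGC-1 partner lists 0 genes were called.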

How the data were processed

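Liver RNA of 20 mice was hybridised to Affymetrix arrays, 1 for each mouse. The deposited table gives 1 intensity on a linear scale for each of 45101 probe sets, which per the submitters' processing notes the authors made with GCRMA (background correction, normalization between arrays and probe summary). No version or setting of GCRMA is stated. Since arrays were normalized to each other, changes are relative to the whole array. The 64 control probe sets were left out. Probe sets were named through the platform annotation: 34945 had 1 symbol, 932 several (not named) and 9160 were not listed there.

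Intensities were taken to log2 with no pseudocount. Each gene's brightest probe set was tested if above 16 units (a log2 value of 4) in 5 or more mice. A single linear model of all 4 groups was fitted with limma 3.58.1 in R 4.3.3 (lmFit, eBayes), two-sided, with Benjamini-Hochberg adjustment over 8774 genes and a threshold of 0.05; every adjusted p in the text is from that fit unless another is named. Probe sets fitted alone were adjusted over 14162. The 5 contrasts were the 2 genotype comparisons, the 2 LPS comparisons and their interaction. GCRMA draws dim values to a floor, so differences that involve levels under 16 units depend on it. Acadm was compared by an exact permutation test. Groups and replicate numbers came from the sample titles, and the number of mice limits the precision. The fit was tested on simulated data.

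The 10 genes, the lists and the marker genes were chosen with earlier results of these data known. Named genes were the 10 members, up to 3 genes with the smallest adjusted p of each pathway list and comparison, Acadm and the 5 genes nearest to Ppargc1a. The text prints a selection of these list genes. The sample titles do not say whether replicate numbers pair the mice, and deviations of same-numbered mice correlated between -0.12 and 0.28 over genes. Alternatives were the replicate number as a block, other filters, probe set choices and scalings, another prior, array weights, the compared groups alone, 16 units added, a 1.5-fold minimum and mice left out.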

Additional observations from a re-analysis of the deposited data

Results flagged for a closer look

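The LPS response of Ppargc1b differed between the genotypes by -1.54 on the log2 scale in the test of the difference itself. The level was 13.6 units with LPS against 179.6 units with vehicle in mcad-/- mice, and 17.4 units against 79.2 units in wild type mice. Since 4 of 5 mcad-/- LPS mice read under 16 units and the wild type LPS mice lay near that floor, the value cannot be told apart from the vehicle difference of 1.18.

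In 3 of 40 sets of 5 mice, 1 value lay far from the other 4 by Dixon's ratio (critical value 0.71), where chance gives about 1 in 20. The ratio was 0.827 for Nr3c1 in wild type mice given vehicle, where mouse 3 read 598 units and the next highest 451 units. It was 0.714 for Gcgr in the same group, where the same mouse read 553 units and the next lowest 721 units. It was 0.715 for Fkbp5 in mcad-/- mice given LPS, where mouse 3 read 802 units and the next lowest 1024 units. Wild type vehicle mouse 3 also had the higher actin ratio of its group, and mcad-/- LPS mouse 3 the highest Acadm reading of its group, 218 units; their part in these values was not tested.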

How the results depend on the processing

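The genotype calls of Ppargc1a and Ppargc1b under vehicle and of Ppargc1a and Gcgr under LPS held in all 15 other settings and in all 20 fits without 1 mouse. In those settings the Ppargc1a difference ran from 1.45 to 2.20 under vehicle and from 1.28 to 2.46 under LPS. The Ppargc1b interaction held in the 14 other settings it was run in (-1.66 to -1.22) and in all 20 fits without 1 mouse (-1.73 to -1.40). Without 1 mouse, 2 members were called in each genotype comparison throughout, 5 to 7 with LPS in mcad-/-, 5 or 6 with LPS in wild type and 1 in the interaction. With the replicate number as a block, 2 members were called in the interaction in place of 1, since Gcgr was added (-0.63, adjusted p = 0.0332). The block changed no other call of a member. Whether the numbers pair mice is not known from the titles. Of the 5 same-numbered pairs of a comparison, 0 to 2 correlated best with their own number. Without both arrays of high actin ratio, the Ppargc1a fall in wild type was -0.86 (adjusted p = 0.0582) and 5 members were called there. With no filter, all 18193 genes entered both the fit and the adjustment. The Ppargc1a fall in mcad-/- was then unchanged at -0.80 with adjusted p = 0.054, and 5 members were called there. A 1.5-fold minimum left 4 members called in mcad-/- and 5 in wild type. Irs1 passed for LPS in mcad-/- without wild type vehicle mouse 1 (adjusted p = 0.0453). With probe sets averaged per gene, the Ppara difference under vehicle was -0.42 (adjusted p = 0.102) in place of 0.58 and the Sik3 interaction 0.026 (adjusted p = 0.935) in place of -1.03, and the Sik3 difference under vehicle was not called (adjusted p = 0.633); the cause was not tested. Calls of list genes printed with an adjusted p above 0.01 were often lost in other settings or without 1 mouse: of 33 to 35 such fits, 9 kept Adcy6 in the interaction, 12 Prkaa2, 22 Pck1 and 22 Cpt1a under LPS, 25 Sik2 and 27 Ppara under vehicle, 27 Crem and 30 Pde3b under LPS, 26 Rptor and 28 Mtor under vehicle, and, of 32 and 33 fits of the interaction, 26 Gadd45b and 26 Fgf21. Over all genes, array weights called 2855 in place of 1422 between genotypes under vehicle and 879 in place of 361 in the interaction, 64 units as the filter 236 in the interaction, and a 1.5-fold minimum 1100 in place of 1806 between genotypes under LPS. Taken singly, 8734 and 8511 of 14162 probe sets were called with LPS in mcad-/- and wild type, in place of 5768 and 5614 of 8774 genes. Without 1 mouse the gene counts ran from 1045 to 1571 and from 1371 to 2005 between genotypes under vehicle and LPS, from 5462 to 5949 and from 5344 to 5676 with LPS in mcad-/- and wild type, and from 262 to 468 in the interaction. With tested genes centred, an alternative chosen after seeing the data, 50.9% of calls with LPS in wild type were higher in place of 62.5%. Of the interaction calls 44.4% were higher in place of 33.0%. With array medians centred, these shares moved the other way, to 65.2% with LPS in wild type and 31.1% in the interaction. Without 1 mouse the Acadm difference ran from -6.90 to -6.12 under vehicle, from -6.04 to -5.06 under LPS, from -0.34 to 0.64 with LPS in mcad-/- and from -1.003 to -0.82 with LPS in wild type. In the other settings it ran from -6.78 to -5.98, from -6.04 to -4.87, from -0.17 to 0.29 and from -1.06 to -0.76 in the same order.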
